A study of Mus musculus with 9 samples.

Results

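The livers of mice named for a lack of NADPH-cytochrome P450 reductase (Cpr) in the liver were set against those of their controls across all genes measured. The 3 liver-Cpr-null pools and the 3 Cpr-lox control pools make up 6 of the 9 arrays of the series, chosen by the model named in the sample titles. The other 3 arrays came from Cpr-low mice, named for a low level of Cpr. All mice were males 2 months old, of a background that mixed C57BL/6 with 129/Sv, and liver RNA of 8 or 9 mice per model went into 3 independent pools. The labels state neither the promoter that drove the deletion nor whether pools share mice. The p-values therefore reflect the scatter of these pools alone. One Affymetrix MOE430A array per pool was used, on which 12393 genes had a probe set with 1 gene symbol. Of these, 8879 genes were bright enough to be tested.

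Cpr is the membrane-bound flavoprotein of the endoplasmic reticulum that hands electrons from NADPH to the microsomal cytochrome P450 enzymes. It also serves heme oxygenase and squalene epoxidase, so it stands upstream of drug oxidation, bile acid and steroid hydroxylation, retinoic acid breakdown and cholesterol synthesis. Mitochondrial P450 enzymes take their electrons from another chain. In hepatocytes the nuclear receptors CAR and PXR switch on drug-metabolizing genes, and SREBP-2 switches on the genes of cholesterol synthesis.

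Array medians lay between 171 and 179 arbitrary units. Across tested genes the liver-Cpr-null arrays, and likewise the Cpr-lox arrays, correlated among themselves at 0.990 to 0.995. Cpr-low arrays did so at 0.984 to 0.994, and liver-Cpr-null with Cpr-lox arrays at 0.978 to 0.984. The run settings carry hybridization stamps within 193 minutes of each other, with midnight in between, and for liver-Cpr-null pool 1 that stamp is later than its scan stamp. The 3 Cpr-lox arrays and Cpr-low pool 1 share the first stamp, liver-Cpr-null pools 1 and 2 and the other Cpr-low pools were stamped 102 to 109 minutes later, and liver-Cpr-null pool 3 at 193 minutes. All liver-Cpr-null arrays thus carry the second calendar date and all Cpr-lox arrays the first, so within the 6 arrays stamp and model cannot be told apart. A fit over 9 arrays with the date as a block, called the date block below, separates them only through Cpr-low pool 1. That array had the lowest trimmed mean signal of the 9, 349 against 369 to 384. It correlated at 0.990 and 0.984 with Cpr-low pools 2 and 3, which correlated at 0.994 with each other. The block therefore cannot tell a shift between dates from a deviation of that 1 pool. The gene that encodes Cpr is not analysed here, so the model labels were not checked with it. Albumin, Alb, the defining hepatocyte product, had signals of 24735, 25652 and 24923 in liver-Cpr-null and 28441, 26972 and 26535 in Cpr-lox. The 8 hepatocyte markers tested summed to between 136990 and 139941 in liver-Cpr-null and between 151440 and 156399 in Cpr-lox. Of them 0 rose and 4 fell, and 1 fell with the date block or with a common median.

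Of 8879 genes, 630 differed between liver-Cpr-null and Cpr-lox at an adjusted p under 0.05 in limma, or 7.10% of those tested. Of these, 325 rose (3.66%) and 305 fell (3.44%). Most changes were modest: the median called rise was 0.52 and the median called fall -0.42 on the log2 scale. At least 1.5-fold were 131 rises (1.48%) and 79 falls (0.890%), at least 2-fold 40 rises (0.451%) and 18 falls (0.203%), and at least 4-fold 6 rises and 1 fall. The balance of rises and falls depended on the scaling, with 335 rises and 204 falls on the deposited scaling and 304 and 145 with a common median. The groups of 3 did not overlap for 323 of the 325 rises and 303 of the 305 falls. That alone is no rare pattern, since 25.6% of all tested genes had groups that did not overlap, 9.96% with liver-Cpr-null above and 15.6% with it below. With the date block 149 genes were called (1.68%), and 105 of the 630 calls remained. Of the 630 genes, 629 kept their sign there, Dram2 being the exception (0.49 without and -0.01 with the block), whose call was also lost without any 1 Cpr-lox or liver-Cpr-null pool but Cpr-lox pool 3 (adjusted p up to 0.0920). Single genes moved in size both ways, 331 of the 630 being larger with the block. The median size was 0.46 without and 0.48 with it, and the median SE grew from 0.091 to 0.155. Over all genes the median log2 fold change was -0.04 without and 0.07 with the block. Of the genes called, 254 stood in one of the gene lists described below and 376 in none.

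**Figure D1:**
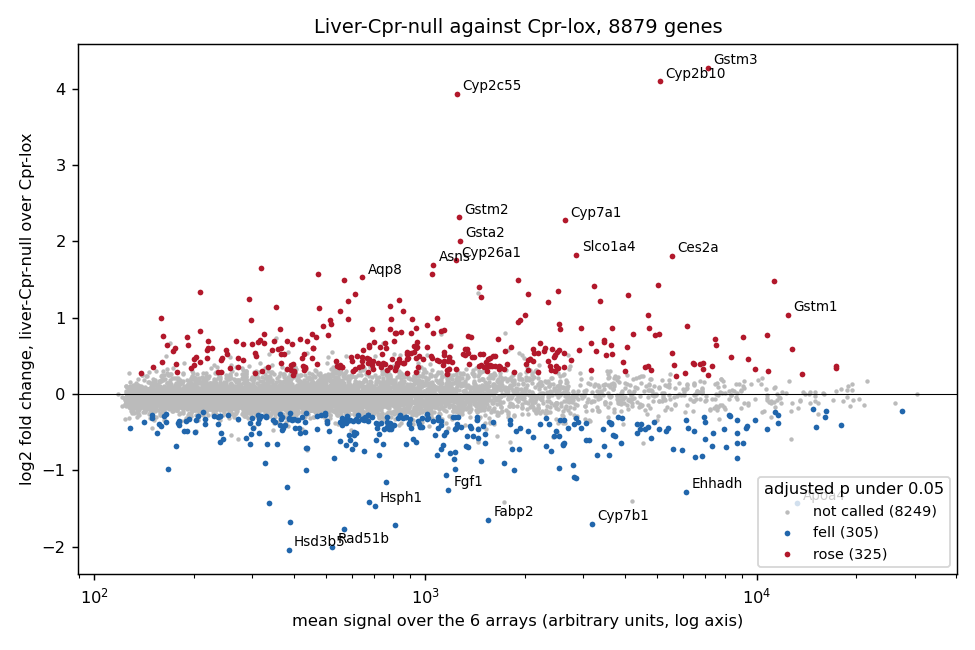
Log2 fold change of liver-Cpr-null over Cpr-lox on the y axis against the mean signal over the 6 arrays on a log x axis, 1 point per gene for 8879 genes. Red points are the 325 genes that rose, blue the 305 that fell, and grey those not called. Gstm3, Cyp2b10 and Cyp2c55 stand above a log2 fold change of 3.9, and the lowest gene is Hsd3b5 at -2.04.

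The largest rises were in genes that oxidize and conjugate foreign compounds. Cyp2b10, the P450 most closely tied to CAR in mouse liver, gave 10964, 8017 and 9886 in the liver-Cpr-null pools against 291, 659 and 828 in Cpr-lox. The lowest liver-Cpr-null pool was far above the highest control, and the rise was 17.1-fold (log2 fold change 4.10 ± 0.27 SE, adjusted p = 2.43e-06), or 3.87 with the date block (adjusted p = 0.00535). The probe set used is of a type that can match related transcripts. Another of that type had 4.26, and one not of that type, nearly as bright, had 3.15. Cyp2b13, a relative of Cyp2b10, was dim, with signals near the array medians. It had 178, 175 and 171 against 183, 187 and 161, groups that overlap, at -0.01 ± 0.09. Cyp2c55 signals of 2774, 2133 and 2167 stood against 147, 138 and 131, a 15.3-fold rise that kept its call with the date block (3.29, adjusted p = 0.000112).

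Members of the Cyp2c family, which hydroxylate drugs and arachidonic acid, were called in both directions. Of 10 tested 6 rose and 1 fell, with a median log2 fold change of 0.50 beside a median of -0.04 over all genes, and with the date block 2 rose and 1 fell. Cyp2c29 read 13276, 13542 and 13577 against 7241, 6909 and 9809, higher in every liver-Cpr-null pool (0.77 ± 0.11). In contrast Cyp2c68 read 1860, 1624 and 1860 against 2723, 2638 and 3212 and fell by 0.67 on the log2 scale (adjusted p = 0.00129), with the date block too (-0.93, adjusted p = 0.0195). Of 8 tested members of the Cyp4 family, the fatty acid omega-hydroxylases, 0 were called by limma and 1 had an unadjusted p under 0.05, as had 18.2% of all genes. Of 13 other Cyp2 genes 0 rose and 2 fell, a count that was 0 with a common median.

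**Figure D2:**
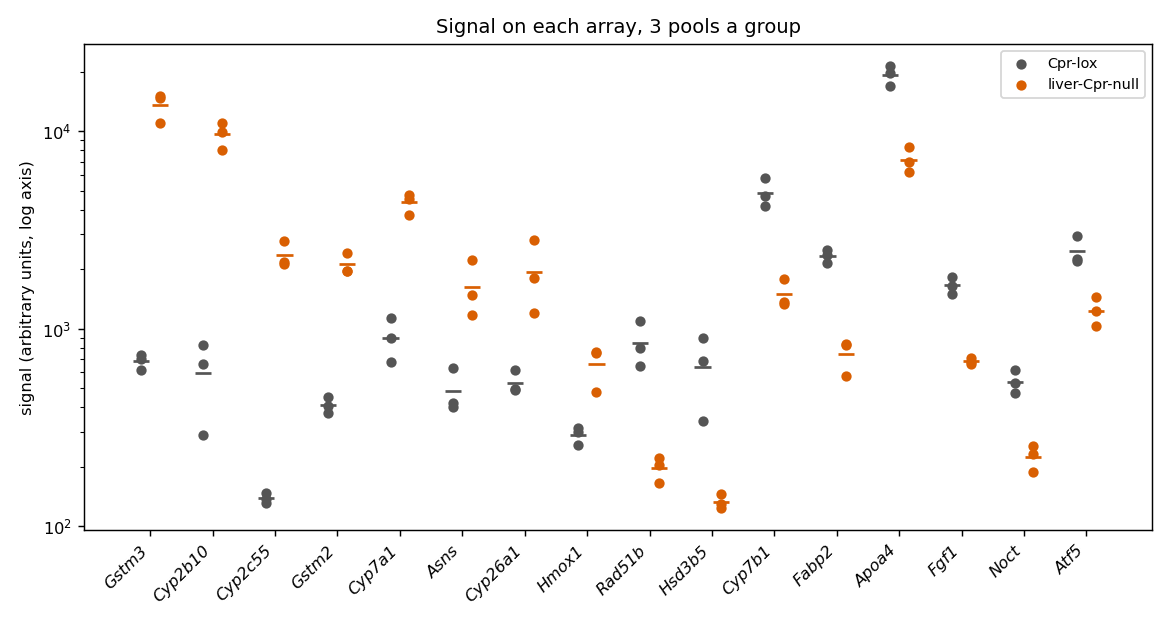
Signal of 16 genes on each array, in arbitrary units on a log axis, with grey points for the 3 Cpr-lox pools, orange points for the 3 liver-Cpr-null pools and bars for the mean of a group. The groups are apart in all 16 genes, from Gstm3, whose liver-Cpr-null signals start at 10986 and whose Cpr-lox signals end at 735, to Atf5, where 1441 stands below 2198.

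Glutathione S-transferases couple electrophiles to glutathione. Of 7 tested mu-class genes 6 rose and 0 fell, with a median of 1.04, and 4 of them kept the call with the date block. Gstm3 gave 14657, 15057 and 10986 against 614, 703 and 735, a 19.3-fold rise with no overlap (4.27 ± 0.12, adjusted p = 3.79e-10). Gstm2 gave 1964, 2410 and 1967 against 450, 408 and 374 (2.32 ± 0.10) and Gstm6 918, 803 and 747 against 367, 319 and 344 (1.22 ± 0.10). The 1 member not called, Gstm7, overlapped between groups, with 536, 449 and 542 against 418, 420 and 506 (0.18 ± 0.12). The probe sets of Gstm3 and Gstm1 are of types that can match related transcripts, so the split of signal within this near-identical family is uncertain. A dimmer probe set of Gstm3, not of such a type, had 3.45. Of 3 alpha-class genes all rose, by 0.62 to 2.0 on the log2 scale, though 0 did with the date block. Gsta2 read 2420, 1467 and 2253 against 481, 366 and 653 (2.0 ± 0.23; adjusted p = 0.0859 with the date block). Of 11 genes of other classes 3 rose, Gstt3 (1.24 ± 0.15), Gstt1 (0.59 ± 0.08) and Mgst3 (0.30 ± 0.08), and the median of the 11 was 0.02. With the date block 0 of the 3 kept the call. Mgst3 missed the threshold when any 1 liver-Cpr-null or Cpr-lox pool, or Cpr-low pool 2, was left out (adjusted p up to 0.177).

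In a list of 24 known CAR and PXR targets, which includes several genes above, 18 rose and 0 fell, and the median was 0.77. With the date block 10 of the 18 kept their call. Slco1a4, an organic anion uptake transporter, gave 4098, 4797 and 4477 against 1354, 1111 and 1282 (1.82 ± 0.09). Its relative Slco1a1 ran the other way, at 900, 860 and 851 against 1640, 1395 and 1454, groups that do not overlap, and fell by 0.77 on the log2 scale (adjusted p = 0.000528). The carboxylesterase Ces2a gave 8698, 8571 and 8681 against 2652, 2156 and 2601 (1.81 ± 0.09), and the aldehyde dehydrogenase Aldh1a7 gave 6749, 4969 and 5829 against 2278, 2227 and 2556 (1.30 ± 0.11). Both kept their call with the date block. Alas1, the first enzyme of heme synthesis, was among the 6 targets not called, at 2503, 2923 and 2121 against 3505, 3347 and 2872 (-0.37 ± 0.13), with a liver-Cpr-null pool above a control. Of 12 heme genes tested 1 rose, Hmox1, and 0 fell.

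Most genes tested of other electron transfer proteins and of enzymes that draw on Cpr rose. Of 11 tested, 7 rose and 0 fell, with a median of 0.46, and 2 kept the call with the date block. Cyb5r3, the reductase of cytochrome b5, read 3849, 4005 and 3800 against 2588, 2207 and 2554 (0.67 ± 0.08, adjusted p = 0.000189; adjusted p = 0.0294 with the date block), and another of its probe sets had -0.03. The outer mitochondrial form of cytochrome b5, Cyb5b, read 1246, 1135 and 1286 against 870, 724 and 793 (0.61 ± 0.09). Pgrmc1, a heme-binding partner of P450 enzymes, read 11382, 10570 and 10821 against 7609, 7852 and 8278 (0.46 ± 0.07). For Cyb5b and Pgrmc1 the groups were apart but the call was lost with the date block (adjusted p = 0.152 and 0.200). Heme oxygenase 1, Hmox1, which itself uses Cpr, gave 761, 478 and 750 against 300, 313 and 257 and rose 2.18-fold (adjusted p = 0.000654; adjusted p = 0.0319 with the date block).

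P450 enzymes with endogenous substrates moved both ways: of the 8 tested, Cyp7a1, Cyp7b1, Cyp8b1, Cyp17a1, Cyp21a1, Cyp26a1, Cyp46a1 and Cyp51, 4 rose and 2 fell. Cyp7a1, which opens the classical route of bile acid synthesis, gave 4766, 3781 and 4533 against 893, 678 and 1130, 4.85-fold higher (adjusted p = 2.60e-06). On the log2 scale that is 2.28, and a dimmer probe set of Cyp7a1 had 1.56. Cyp7b1, the oxysterol hydroxylase of the alternative route, gave 1788, 1358 and 1336 against 4157, 4681 and 5820 and fell by 1.70 on the log2 scale (adjusted p = 6.89e-06). Both kept their calls with the date block. Cyp8b1, the 12-alpha-hydroxylase that sets the share of cholic acid, read 9498, 9080 and 8890 against 5864, 6007 and 5780 (0.64 ± 0.08; adjusted p = 0.118 with the date block). Cyp26a1, which breaks down retinoic acid, read 2824, 1195 and 1794 against 494, 488 and 616, a 3.37-fold rise with wide spread among the liver-Cpr-null pools and no overlap (adjusted p = 0.000544). Cyp17a1, the steroid 17-alpha-hydroxylase, gave 406, 283 and 315 against 518, 2007 and 1335. The lowest control was close to the liver-Cpr-null pools, and the fall of 1.71 lost its call with the date block (adjusted p = 0.193).

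Around these enzymes, the list of bile acid synthesis and transport split evenly, with 5 rises and 5 falls of 20 tested and a median of -0.09. With the date block 1 rose and 1 fell. Abcb11, the bile salt export pump, read 2950, 3122 and 3252 against 2029, 1981 and 2417 (0.54 ± 0.09). Nr0b2 (SHP), a repressor of Cyp7a1, read 506, 323 and 591 against 1116, 820 and 1215 and fell by 1.15 on the log2 scale, with no overlap. Klb, the co-receptor through which intestinal FGF reaches hepatocytes, read 349, 333 and 367 against 513, 439 and 495 (-0.44 ± 0.08), while its partner Fgfr4 had 0.02 and was not called. Dimmer probe sets of Fgfr4 had -0.02 and -0.27 (adjusted p = 0.924 and 0.0539 in limma over all probe sets kept). Only the one with -0.27 is not of a type that can match related transcripts. None of Abcb11, Nr0b2 and Klb passed with the date block (adjusted p = 0.198, 0.168 and 0.139).

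Of 28 nuclear receptors and coactivators tested 1 rose and 6 fell, with a median of -0.11. With a common median 2 fell, and 2 fell with the date block. Hnf4a, the receptor that maintains hepatocyte identity, read 3885, 3791 and 3569 against 5040, 5258 and 5174 and fell by 0.46 (adjusted p = 0.00177; adjusted p = 0.0239 with the date block). Its dimmer probe sets had -0.24 to -0.03. CAR itself, Nr1i3, read 1324, 1307 and 1222 against 1621, 1485 and 1647 (-0.30 ± 0.08, adjusted p = 0.0483). That call was lost with every other scaling tried, with the date block (-0.09) and without any 1 liver-Cpr-null or Cpr-lox pool (adjusted p up to 0.172). PXR, Nr1i2, was not called (-0.21 ± 0.10). The 1 that rose was Pparg, a receptor of fat storage, at 474, 374 and 463 against 286, 290 and 274 (0.59 ± 0.09; adjusted p = 0.0853 with the date block). Ahr, counted in the Cyp1 list, gave 792, 811 and 665 against 357, 268 and 428 (1.09 ± 0.15), while a second probe set of it had -0.08. The call of Ahr was lost with the date block, where 0 genes of the Cyp1 list kept a call.

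Several genes of cholesterol synthesis rose. Of 18 tested, from the mevalonate pathway and the steps after squalene, 9 rose and 0 fell, with a median of 0.48, and with the date block 3 rose and the median was 0.65. Hmgcs1, which makes the precursor of mevalonate, gave 3697, 1813 and 3005 against 977, 1069 and 834, a 2.82-fold rise (adjusted p = 0.00177). The isomerase Idi1 gave 625, 349 and 510 against 154, 140 and 133 (1.66 ± 0.19, adjusted p = 0.000249; adjusted p = 0.0413 with the date block). In every one of the 9 genes that rose, liver-Cpr-null pool 1 was the highest and pool 2 the lowest of the 3 liver-Cpr-null pools, yet none reached down to a control. Past squalene, the epoxidase Sqle, another enzyme that takes electrons from Cpr, read 864, 549 and 654 against 328, 383 and 305 (0.97 ± 0.18). Cyp51, the P450 that demethylates lanosterol, read 280, 153 and 224 against 90, 105 and 101 (1.00 ± 0.16), and Msmo1, the next demethylase in the order of the pathway, 2210, 804 and 1801 against 408, 554 and 511 (1.57 ± 0.30). Calls of Hmgcs1, Sqle, Cyp51 and Msmo1 were lost with the date block (adjusted p = 0.0937, 0.0580, 0.147 and 0.151), at log2 fold changes of 1.62, 1.39, 0.87 and 1.70. Among members that did not pass were Lss (0.22), Mvk (-0.03) and Ebp (0.14).

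The promoters of 4 of these sterol genes are shown because they moved together, beside those of the 2 mu-class transferases with the largest rises. Each line gives the 120 bases before the gene's start on its own strand, from RefSeq on GRCm38.p6, and capitals mark CCAAT or its reverse complement ATTGG, a motif that recruits the factor NF-Y and that sterol gene promoters are known to hold.
Hmgcs1, chr13:119690231-119690350, plus strand: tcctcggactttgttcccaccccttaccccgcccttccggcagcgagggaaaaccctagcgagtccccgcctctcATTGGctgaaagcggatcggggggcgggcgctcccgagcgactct
Idi1, chr13:8885486-8885605, plus strand: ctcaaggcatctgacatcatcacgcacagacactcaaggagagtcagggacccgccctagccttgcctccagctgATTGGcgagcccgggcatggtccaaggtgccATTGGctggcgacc
Cyp51, chr5:4104698-4104817, minus strand: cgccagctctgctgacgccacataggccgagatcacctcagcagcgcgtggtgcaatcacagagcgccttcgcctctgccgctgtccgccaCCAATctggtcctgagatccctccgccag
Msmo1, chr8:64733579-64733698, minus strand: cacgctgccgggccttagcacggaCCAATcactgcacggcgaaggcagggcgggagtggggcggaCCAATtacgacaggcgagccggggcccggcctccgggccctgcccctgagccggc
Gstm2, chr3:107986421-107986540, minus strand: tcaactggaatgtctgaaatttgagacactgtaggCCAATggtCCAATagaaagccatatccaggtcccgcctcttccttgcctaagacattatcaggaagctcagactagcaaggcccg
Gstm3, chr3:107969175-107969294, minus strand: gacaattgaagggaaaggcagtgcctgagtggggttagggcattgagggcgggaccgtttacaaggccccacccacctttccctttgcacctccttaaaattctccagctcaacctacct

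All 4 sterol stretches hold the motif, Idi1 and Msmo1 at 2 places each, and of the transferases shown Gstm2 holds it at 2 places and Gstm3 at none. Searched over 250 bases on both strands, CCAAT stood in 14 of 15 sterol synthesis promoters listed (93.3%), against 35.7% of the 7127 tested genes with a listed promoter. It also stood in 5 of 7 mu-class transferase promoters (71.4%) and in 14 of 22 promoters of CAR and PXR targets (63.6%). Among promoters of all genes that rose it stood in 42.6%, and of those that fell in 39.1%. A sterol response motif spelled TCACNCCAC stood in 1 of the 15 and in 1.01% of all. Such matches describe letters and not binding.

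**Figure D3:**
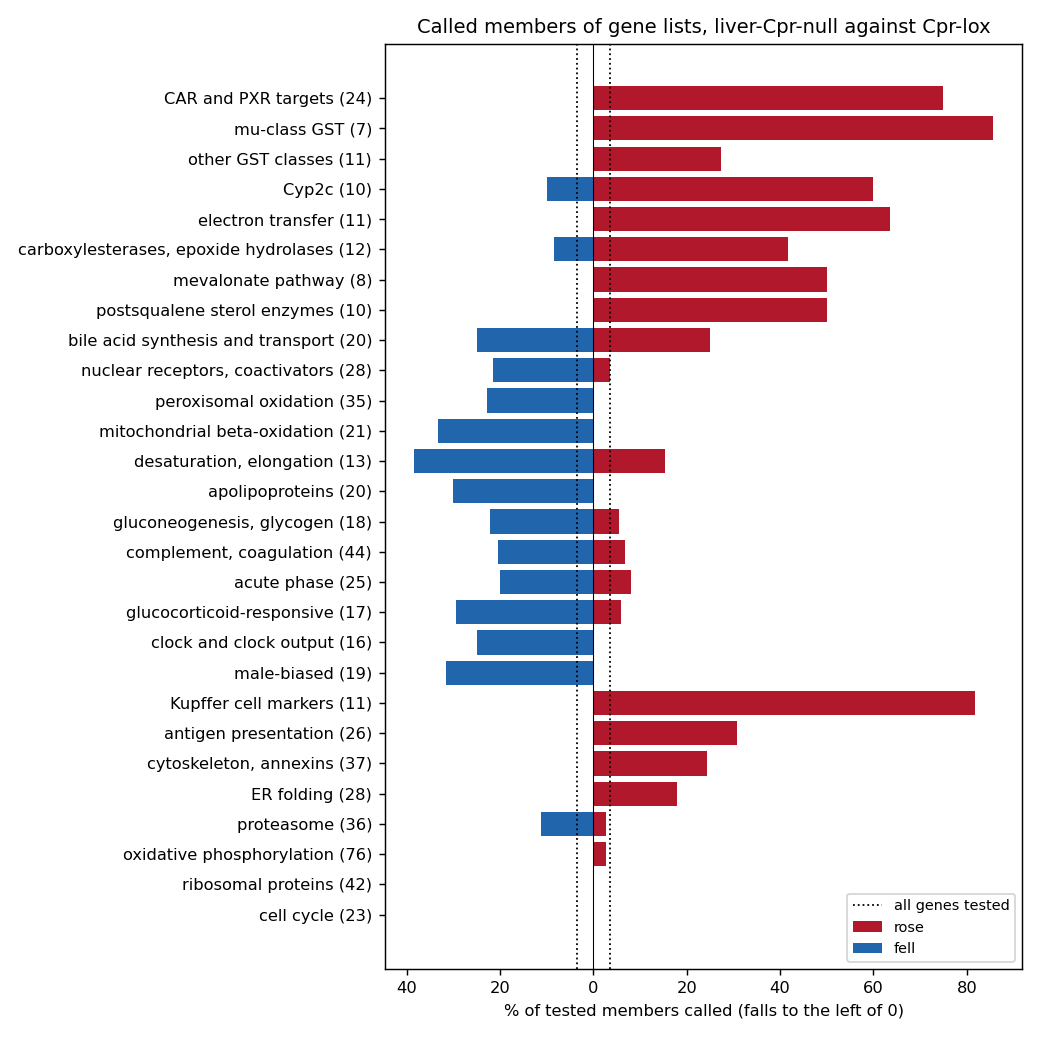
Percent of the tested members of each of 28 gene lists that rose (red, right of 0) or fell (blue, left of 0) in liver-Cpr-null against Cpr-lox, with the number of members tested in brackets and dotted lines at the percentages over all genes. Drug-metabolism, sterol synthesis and Kupffer cell lists extend to the right and lists of fatty acid oxidation, apolipoproteins and clock output to the left, while 0 of 42 ribosomal protein genes and 0 of 23 cell cycle genes were called.

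Transcripts of the canalicular sterol exporter were lower. Abcg5 and Abcg8, which together form the exporter, read 916, 715 and 822 against 1583, 1384 and 1954, and 765, 712 and 873 against 1357, 1228 and 1549. Both groups are apart, at -0.98 ± 0.13 and -0.80 ± 0.10, and both calls were lost with the date block (adjusted p = 0.0551 and 0.0732).

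Some genes that burn fatty acids fell in liver-Cpr-null. Of 21 mitochondrial beta-oxidation genes 0 rose and 7 fell, with a median of -0.28, and 4 of the 7 kept the call with the date block. Of 35 peroxisomal genes 0 rose and 8 fell (median -0.15), and 2 of the 8 kept it. Cpt1a, the gate of fatty acid entry into mitochondria, read 2996, 3055 and 3080 against 4608, 4979 and 4623 and fell by 0.63 on the log2 scale (adjusted p = 0.00193), or by 1.04 with the date block (adjusted p = 0.00150). Ehhadh, the peroxisomal bifunctional enzyme, read 3870, 3485 and 3171 against 8057, 11164 and 6902 and fell by 1.28, or by 1.99 with the date block. Bdh1, which makes the ketone body beta-hydroxybutyrate, read 1602, 1766 and 2028 against 4647, 3665 and 3377 (-1.10 ± 0.12). In all 3 the groups were apart. Counts of falls in both lists were smaller with a common median, 4 of mitochondrial and 5 of peroxisomal genes.

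Of 20 genes of lipid uptake and droplets 3 rose and 5 fell, with a median of -0.15, and 2 of the rises and 1 of the falls kept the call with the date block. Cd36, a fatty acid translocase, gave 353, 273 and 295 against 119, 105 and 111 (1.33 ± 0.10), and lipoprotein lipase, Lpl, 838, 824 and 679 against 390, 381 and 385 (0.98 ± 0.09). The binding protein Fabp2 fell from 2508, 2366 and 2157 in Cpr-lox to 577, 834 and 825, by 1.65 on the log2 scale. Of 20 apolipoproteins and partners 0 rose and 6 fell, with Apoa4 at 7010, 8301 and 6225 against 16928, 21338 and 19737 (-1.43 ± 0.14) and Apom at 2261, 2596 and 2390 against 4132, 4192 and 4235 (-0.79 ± 0.08). These 5 genes kept their calls with the date block. Of 13 desaturation and elongation genes 2 rose and 5 fell. With the date block 0 rises and 1 fall kept the call, and with a common median 2 rises and 3 falls did. Scd1, the stearoyl-CoA desaturase, read 6572, 7161 and 7461 against 5184, 2203 and 1566, a rise of 1.43 ± 0.30 that missed the threshold without Cpr-lox pool 2 (adjusted p = 0.0521) and with the date block (adjusted p = 0.207). Elovl2, which lengthens polyunsaturated fatty acids, read 1859, 2131 and 2161 against 3265, 3307 and 2989, groups well apart (-0.63 ± 0.10; adjusted p = 0.00732 with the date block). Fgf1, a secreted growth factor, fell to 0.420 of the control level, from 1498, 1645 and 1820 to 712, 660 and 679.

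Carbohydrate and amino acid genes were called in both directions. Of 18 genes of gluconeogenesis and glycogen 1 rose and 4 fell (median -0.11), and of 30 genes of amino acid catabolism 3 rose and 4 fell (median -0.11). With the date block 0 rises and 1 fall of the first list kept the call, and 1 rise and 1 fall of the second. With a common median 1 rise and 2 falls of each list kept it. The liver glycogen synthase Gys2 read 968, 1045 and 1035 against 1788, 1512 and 1619 (-0.68 ± 0.10; adjusted p = 0.0195 with the date block). Asparagine synthetase, Asns, a target of the stress factor ATF4, gave 1176, 2234 and 1480 against 400, 422 and 632 and rose 3.24-fold. Atf5, another gene of that list, gave 1033, 1441 and 1225 against 2259, 2941 and 2198 and fell by 0.99, a call lost with the date block (adjusted p = 0.0747). Over the 17 genes of the list the median was -0.01, with 3 rises and 1 fall. Csad, which makes the taurine precursor hypotaurine, gave 1893, 2232 and 2208 against 923, 860 and 609 (1.41 ± 0.13). Of 7 urea cycle genes 1 fell and 0 rose. That fall kept its call with the date block and lost it with a common median.

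Male-biased, clock output and glucocorticoid-responsive lists held more falls than rises. Of 12 genes known to be higher in female mouse liver 2 rose and 2 fell (median -0.03). Of these, 2 rises and 1 fall kept the call with the date block. Of 19 genes known to be higher in male mouse liver 0 rose and 6 fell (median -0.15), a count that stayed at 6 on each of the other scalings and was 2 with the date block. The steroid dehydrogenase Hsd3b5 was at 129 to 146 against 684, 341 and 896, apart from all controls, and its fall of 2.04 shrank to 0.80 with the date block (adjusted p = 0.429). Of 16 clock and clock output genes 0 rose and 4 fell, 0 of them with the date block, and Dbp ranged from 131 to 482 within liver-Cpr-null and from 444 to 1359 within Cpr-lox. Those groups overlap, and its call was lost without Cpr-lox pool 1 or 3 or liver-Cpr-null pool 2 or 3 (adjusted p up to 0.121). The labels do not state the time of day of collection. Noct, a phosphatase with daily rhythm in liver, read 254, 231 and 188 against 472, 616 and 529 (-1.21 ± 0.15). Of 17 glucocorticoid-responsive genes 1 rose and 5 fell (median -0.26). Of the 5 falls 2 kept the call with a common median and 0 with the date block. Tsc22d3, the leucine zipper induced by glucocorticoids, read 774, 581 and 840 against 1020, 1181 and 1100 (-0.59 ± 0.12; adjusted p = 0.138 with the date block).

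Markers of Kupffer cells, the liver's resident macrophages, mostly rose. Of 11 tested 9 rose and 0 fell, with a median of 0.46, and 1 rose with the date block, where the median was 0.47. Their summed signal ran from 9964 to 12798 in liver-Cpr-null and from 7295 to 7836 in Cpr-lox, with no marker at 0. In bulk RNA more cells of a type and more RNA per cell cannot be told apart. Cd5l, a secreted scavenger protein, read 2295, 3212 and 2070 against 1373, 1181 and 1310 (0.94 ± 0.14), and Clec4f, a lectin made by Kupffer cells, 976, 1296 and 977 against 744, 752 and 698 (0.54 ± 0.10). Liver-Cpr-null pool 2 was the highest of its group in all 9 genes that rose, and without it 6 rose. Adgre1, the F4/80 antigen, and Marco were not called (0.05 and 0.14). Of 26 antigen presentation genes 8 rose and 0 fell, 3 of them without liver-Cpr-null pool 2 and 2 with the date block. Kupffer cells make C1q, and of the 44 complement and coagulation genes tested C1qa, C1qb and C1qc were the 3 that rose. The call of C1qa was lost without Cpr-lox pool 2 or 3 or liver-Cpr-null pool 1 or 2 (adjusted p up to 0.0988). With the date block 0 of the 3 C1q rises kept the call. Of 7 endothelial, 3 lymphocyte and 5 neutrophil markers 0 were called by limma, with 1, 0 and 0 at an unadjusted p under 0.05, beside 18.2% of all genes. Of 9 stellate markers 1 was called.

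Some secreted hepatocyte proteins fell. Of 44 complement and coagulation genes 3 rose, the C1q chains just named, and 9 fell, with a median of -0.14, but 3 fell with a common median and 0 with the date block. The inter-alpha-trypsin inhibitor chains Itih3 and Itih4 fell further, from 7265, 8829 and 8931 to 4536, 5123 and 4401 and from 10875, 9940 and 12728 to 5851, 6355 and 6442 (-0.83 ± 0.09 and -0.84 ± 0.08). Both passed with the date block (adjusted p = 0.0218 and 0.0195). Of 25 acute phase genes 2 rose and 5 fell, with a median of -0.15, and 2 of the falls kept the call with the date block.

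Of 37 cytoskeletal and membrane-binding genes tested 9 rose, 0 fell and 28 were not called (median 0.13), and 3 of the rises kept the call with the date block. Actg1, cytoplasmic gamma-actin, gave 3472, 4424 and 3015 against 1198, 1552 and 1463 (1.35 ± 0.13), annexin Anxa5 2993, 2564 and 3219 against 1138, 1235 and 1122 (1.31 ± 0.09) and the keratin Krt8 3752, 3751 and 2482 against 1620, 1834 and 1744 (0.91 ± 0.13). Krt8 lost its call with the date block (adjusted p = 0.121). Actb, cytoplasmic beta-actin, read 2177, 2299 and 2530 against 2084, 1867 and 2342, overlapping, and was not called (0.16 ± 0.09), while a dimmer probe set of it rose by 0.49 (adjusted p = 0.00994 in limma over all probe sets kept). For beta-actin, control probe sets at both ends of the transcript are a sign of RNA integrity and labelling. Their 3' over 5' ratio was 1.97, 1.99 and 1.62 in liver-Cpr-null and 1.23, 1.29 and 1.43 in Cpr-lox, whereas that of Gapdh was lower in liver-Cpr-null. The part of this ratio in the results was not tested. Of 28 endoplasmic reticulum folding genes 5 rose and 0 fell (median 0.23), 0 of them with the date block, among them Sec61b of the protein translocon (0.54 ± 0.09).

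Lists of general cell machinery differed in their counts. Of 42 ribosomal protein genes, 45 splicing genes, 22 tRNA synthetases and 23 cell cycle genes 0 were called by limma, with 6, 6, 1 and 1 at an unadjusted p under 0.05. Over all genes 18.2% had such a p. Of 76 genes of oxidative phosphorylation 2 rose and 0 fell, beside 7.10% called over all genes. Of 36 proteasome genes 1 rose and 4 fell, the falls being 0 with a common median. Of 22 genes of the tricarboxylic acid cycle 3 rose and 1 fell, of 179 solute carriers 5 rose and 13 fell, and of 35 vesicle transport genes 2 rose and 1 fell. Of the rises and falls in these 3 lists, 6 falls of solute carriers kept the call with the date block. The balance among solute carriers depended on the scaling. With a common median 7 of them rose and 4 fell, and on the deposited scaling 7 rose and 6 fell.

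Several called genes were neighbours. In the order of tested genes along RefSeq chromosomes, 6 runs of at least 3 adjacent genes were called in the same direction, a description chosen after the values were seen. On chromosome 3 Gstm6, Gstm3, Gstm2, Gstm1 and Gstm4 rose, and on chromosome 19 Cyp2c55, Cyp2c29, Cyp2c39 and Cyp2c38. Runs that fell were Acot1, Acot4 and Acot3, the acyl-CoA thioesterases on chromosome 12, Itih4, Itih3 and Itih1 on chromosome 14 and the fibrinogen chains Fgg, Fga and Fgb on chromosome 3. The sixth was the rise of C1qb, C1qc and C1qa on chromosome 4. Each run is made of related genes. With the date block 0 of the 3 C1q chains kept the call, while 2 rises of the Cyp2c list, 4 of the mu-class list, Itih3 and Itih4 did. In 5 of the 6 runs some calls were lost when 1 pool was left out: those of Cyp2c39 (adjusted p up to 0.126), Acot1 and Acot4 (up to 0.0957), Itih1 (up to 0.127), C1qa (up to 0.0988) and all 3 fibrinogen chains (up to 0.107), each without at least 1 Cpr-lox and 1 liver-Cpr-null pool, among them Cpr-lox pool 2.

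Other large changes stood outside the lists. The water channel Aqp8 rose 2.88-fold, at 1169, 959 and 781 against 335, 311 and 320, and kept its call with the date block (adjusted p = 0.00732). The chaperone Hsph1 fell by 1.46, from 787, 1084 and 1254 to 342, 314 and 435, and further with the date block (adjusted p = 0.00464). Car3, a carbonic anhydrase, read 18297, 13195 and 16688 against 7386, 2708 and 9299, and its rise of 1.48 ± 0.32 missed the threshold without liver-Cpr-null pool 1 (adjusted p = 0.0573). The fall of Rad51b, a DNA repair gene, from 1093, 800 and 649 to 204, 221 and 166, rests on 1 probe set, since a dimmer one had 0.04. Just inside the threshold stood Serp1 and Pcsk6 (adjusted p = 0.0495 and 0.0493), and just outside it Irs1 and Acot8 (both adjusted p = 0.0502).

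**Figure D4:**
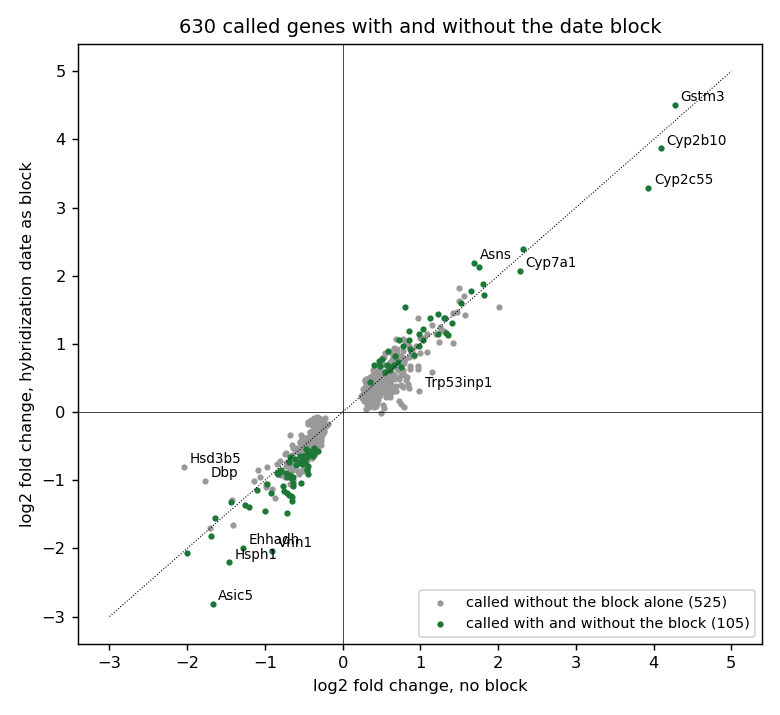
Log2 fold change of the 630 called genes with the hybridization date as a block (y axis) against that without it (x axis), with a dotted line of equality. Green points are the 105 genes called in both fits and grey points the 525 that lost their call. All but Dram2 lie on the same side of 0 in both fits, and Hsd3b5 moved from -2.04 to -0.80.

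The liver-Cpr-null arrays were also set against those of Cpr-low, the comparison in which stamps are partly shared. Of 8879 genes 748 differed (8.42%), 414 higher (4.66%) and 334 lower (3.76%) in liver-Cpr-null. Among arrays of the second date alone 468 did (5.27%), 248 higher (2.79%) and 220 lower (2.48%). Cyp2b10 was 1.49 higher than in Cpr-low on the log2 scale, where it read 3051, 3792 and 3356, and Gstm3 2.0 higher, from 3740, 3043 and 3291. In sterol synthesis 0 of 18 genes were above Cpr-low, 3 were called lower, and the median was -0.25 beside -0.08 over all genes. Among arrays of the second date 0 were called lower. Of Kupffer cell markers 8 of 11 were higher than in Cpr-low, 6 of them among arrays of the second date, with Cd5l at 1256, 1348 and 1121 in Cpr-low. Of 19 male-biased genes 10 were lower than in Cpr-low, 8 of them among arrays of the second date. Each comparison uses the same liver-Cpr-null arrays.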

How the data were processed

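The authors deposited linear signal intensities as integers, 1 per probe set, and the lowest on any array was 25 or 26. The labels do not state how probes were summarised or scaled. The number of pools, 3 per model, limits the precision. Signals were scaled to a common 2% trimmed mean and are printed so, rounded. Of 22690 probe sets 64 were controls, 20380 had 1 gene symbol in GEO's platform annotation, 691 several and 1555 none. Values were log2(signal + 16), which understates changes of dim genes. Probe sets in the upper 60% by mean were kept and the brightest stood for its gene.

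One model over the 9 arrays was fitted with lmFit and eBayes (trend on) of limma 3.58.1 in R 4.3.3. Two-sided p-values were adjusted by Benjamini and Hochberg over 8879 genes with a threshold of 0.05, and "rose", "fell" and "called" refer to it. The script was tested on simulated data. Hybridization stamps came from run settings, per the file headers. Same-numbered pools of both models deviated together at correlations of -0.210, 0.272 and 0.249. These have both signs and cannot settle whether the numbers pair the pools, and the main fit did not pair them.

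Members and gene lists were chosen with earlier results of these data known. Genes named were the 20 largest rises and falls whose groups do not overlap, from each list that had 3 or more calls the best 5 by adjusted p, all members of 14 lists, and the genes next to the threshold; genes named beyond that (Alb, Cyp2c39, Acot1, Acot4, Fgg, Itih1, C1qa, C1qb, Dram2, Lss, Mvk, Ebp, Adgre1, Marco) were chosen after their values were seen. Alternatives changed the pseudocount, scaling, filter, probe set choice, trend and blocks, and left out each pool; the run block and the second-date fit were chosen after seeing the data. Figures were drawn with matplotlib 3.10.9.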

Additional observations from a re-analysis of the deposited data

How the results depend on the processing

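Of 630 genes called, 67 passed in every alternative in which they were tested, 35 rising and 32 falling, and no gene named by rule changed sign with its call. Counts stayed within 1.5 times of 630, 325 and 305 under other pseudocounts, filters, probe set choices, quantile normalization, the deposited scaling, no trend and 6 arrays alone. With a common median in place of the trimmed mean 145 genes fell. A block for the hybridization date left 149 calls (52 rises, 97 falls), and a block for the run 135 (56 rises, 79 falls). The cause was not tested, and the block's SE is larger. Leaving out 1 pool gave 348 to 757 calls, 203 to 372 rising and 145 to 385 falling, lowest without liver-Cpr-null pool 1 and highest without Cpr-low pool 1. It was 401 without Cpr-lox pool 2 (215 rising, 186 falling), and 179 fell without liver-Cpr-null pool 2. The pool number as a replicate block gave 834 calls, and since it is not settled whether the numbers pair the pools it is not read further. Against Cpr-low, 748 calls became 468 with arrays of the second date alone, where 5 arrays remain. At an unadjusted p under 0.05 stood 1618 genes. With 3 pools a group, small changes of dim genes may not be detectable, and signals near the array minimum carry an unknown background.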
